A study of Mus musculus with 6 samples.

Results

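The genes described here are 15 predicted mouse genes, named with the placeholder prefix Gm, that had few or no reads in every circSry knockout library and were present in wild type. They were chosen from the expression values themselves. A row was taken when its symbol was Gm followed by digits, its mean over the 3 wild-type libraries was at least 2 CPM (estimated counts scaled to the library total), and its smallest wild-type value was at least 4 times its largest knockout value. The rule selected 15 of 53700 genes in the table, out of 24936 Gm rows and 1245 Gm rows that reached the wild-type minimum. Their difference between the genotypes was therefore fixed by the choice, and the values below describe it without testing it.

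The libraries came from primary spermatocytes, the germ cells in meiotic prophase, collected from testes of C57BL/6 mice at 8 weeks by flow cytometry on Hoechst stain. The 2 groups were a knockout of circSry (KO, 3 libraries), the circular transcript of Sry, the gene that sets male sex, and wild type (WT, 3 libraries). The labels do not say how the deletion was made, or whether each library came from its own animal. The material is given as total RNA, which does not say what part of it the sequenced libraries held. The study's title places circSry as a sponge of the microRNA miR-138-5p.

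A Gm symbol is given to a mouse locus that was predicted from sequence or transcript evidence and has no name for a function. Such loci include long intergenic and antisense noncoding RNAs, processed pseudogenes (reverse-transcribed copies of messenger RNAs inserted elsewhere in the genome), unverified transcripts labelled TEC and a few short open reading frames. Germ cells in meiosis transcribe an unusually large number of them. A part of the long noncoding transcripts of pachytene spermatocytes are precursors of piRNAs, and their transcription depends on the factor A-MYB, the product of Mybl1.

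In GENCODE M21, on mouse build GRCm38, the 15 genes comprised 5 processed pseudogenes, 3 TEC genes, 3 antisense RNAs, 2 genes called protein coding, 1 processed transcript and 1 long intergenic RNA. 8 of the 15 had a single exon. 6 lay on chromosome 5, 3 on chromosome 17 and 2 on chromosome 10, and chromosomes 2, 7, 8 and 14 held 1 each. 3 pairs were neighbours. Gm13821 and Gm9936 were 13683 bases apart on chromosome 5, Gm29755 and Gm8929 were 73983 bases apart near the other end of that chromosome, and Gm47362 and Gm47363 were 335 bases apart on chromosome 10.

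Sequences are shown first, since most of these genes are known by little else. RefSeq promoter windows on build GRCm38.p6, from 250 bases before to 50 bases after the annotated start, matched 3 of the 15 genes. They are printed 5′ to 3′ on the strand of the gene, and capitals mark TGACG, the half-site of the cAMP response element that factors of the CREB and CREM family bind. The windows are chr5:114846545-114846844 on the minus strand for Gm13821, chr5:114859378-114859677 on the minus strand for Gm9936 and chr7:44986650-44986949 on the plus strand for Gm15545.
Gm13821: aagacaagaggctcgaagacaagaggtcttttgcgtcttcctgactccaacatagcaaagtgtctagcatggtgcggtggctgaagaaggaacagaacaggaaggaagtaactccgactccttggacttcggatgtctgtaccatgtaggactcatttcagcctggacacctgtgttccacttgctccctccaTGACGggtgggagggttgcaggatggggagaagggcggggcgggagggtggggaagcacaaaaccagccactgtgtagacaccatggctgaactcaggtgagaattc
Gm9936: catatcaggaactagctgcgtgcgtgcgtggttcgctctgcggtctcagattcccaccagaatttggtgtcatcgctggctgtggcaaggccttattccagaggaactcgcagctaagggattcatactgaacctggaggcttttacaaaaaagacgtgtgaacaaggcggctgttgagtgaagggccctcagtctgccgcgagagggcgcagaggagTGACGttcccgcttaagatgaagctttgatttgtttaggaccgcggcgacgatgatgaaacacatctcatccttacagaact
Gm15545: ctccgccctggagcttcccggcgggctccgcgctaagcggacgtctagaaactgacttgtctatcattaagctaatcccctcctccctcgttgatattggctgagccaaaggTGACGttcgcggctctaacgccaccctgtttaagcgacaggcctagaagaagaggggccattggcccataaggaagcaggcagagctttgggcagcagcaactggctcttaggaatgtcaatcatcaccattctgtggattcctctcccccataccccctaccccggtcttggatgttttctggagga

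All 3 windows held TGACG once, 57, 32 and 138 bases before the RefSeq start of Gm13821, Gm9936 and Gm15545. Only the window of Gm15545 contains the M21 start of its gene, at base 44986900. Those of Gm13821 and Gm9936 lie wholly upstream of the M21 genes, whose minus-strand starts are at bases 114842075 and 114858682. Searched on both strands, the same letters occurred in 20.8% of the 32851 promoter windows of that length. The full element TGACGTCA, which contains TGACG, was in none of the 3 windows and in 1.79% of all windows. The CCAAT box occurred 2 times in Gm15545 and in neither of the others (37.4% of all windows). The TATA box letters TATAAA (13.6% of all windows) and the MYB letters TAACNG (23.3%) were in none of the 3. A match of this kind describes letters, not binding.

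The study's miRNA enters the description through its sequence. The mature miR-138-5p, made in the mouse from Mir138-1 on chromosome 9 and Mir138-2 on chromosome 8, is printed with its seed (bases 2 to 8) in capitals. The 3 windows of 29 bases beneath it are from the longest M21 transcripts of the genes that held the complement of the seed, CACCAGC, in capitals.
miR-138-5p: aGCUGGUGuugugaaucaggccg
Gm16278: tcgctgtcgccCACCAGCaggaacttgag
Gm45709: ggggtggggtcCACCAGCtcccaggacgc
Gm13814: gtctctccagcCACCAGCtttggagggga

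3 of the 15 genes (20%) held such a site, against 23.0% of the 1220 other Gm rows at the same WT minimum that have an M21 transcript. The site stood at base 359 of 2071 in Gm16278, at base 692 of 1075 in Gm45709 and at base 2751 of 3077 in Gm13814. The longest transcripts of the 15 had a median of 1132 bases and those of the other Gm rows 1748 bases, and a longer transcript holds a given 7 bases more often.

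Before the values, the libraries themselves. Each held 8191397 to 9294723 estimated counts in KO and 7400360 to 8422943 in WT, so 3 counts, the upper limit that a count of 0 allows, correspond to 0.323 to 0.366 CPM in KO and 0.356 to 0.405 CPM in WT (counting error only). Sry had a count of 0 in all 6 libraries. Counts per gene do not measure the circular form, which leaves the deletion unchecked in these tables. KO replicate 3 was unlike the rest of its group over all genes, with 22258 genes detected, against 25438 and 26235 in KO replicates 1 and 2 and 24015 to 25129 in WT. Marker lists of other cell types also differed. The summed level of 10 elongating spermatid genes was 6804 to 15780 CPM in KO and 2194 to 3770 CPM in WT, that of 12 pachytene and diplotene spermatocyte genes 5763 to 9791 CPM in KO and 8760 to 10317 CPM in WT, and that of 11 macrophage and leukocyte genes 43.1 to 496 CPM in KO and 29.9 to 45.3 CPM in WT. Round spermatid genes (10) were at 2031 to 3039 CPM in KO and 857 to 1448 CPM in WT. Sertoli cell genes (12) were at 245 to 473 CPM in KO and 91.5 to 120 CPM in WT, and Leydig cell genes (10) at 278 to 525 CPM in KO and 637 to 888 CPM in WT. The lists for spermatogonia (10 genes) were at 200 to 263 CPM in KO and 154 to 192 CPM in WT, and for peritubular and endothelial cells (10 genes) at 55.7 to 734 CPM in KO and 168 to 260 CPM in WT. Summed levels did not overlap between the groups for elongating spermatid, round spermatid, Sertoli, Leydig and spermatogonia genes, and overlapped for the other lists. How often sums of other genes separate in this way was not tested. Among the 12 spermatocyte genes, 5 had all KO values below all WT values (Sycp1, Hormad1, Piwil1, Mybl1 and Ybx2), against 16.9% of all genes tested. At an unadjusted p under 0.05 in edgeR, 4 of the 12 were lower and 0 higher, against 9.84% and 13.6% of all genes. Their median log2 fold change was -0.65, against 0.12. At that limit 9 of 10 elongating spermatid, 9 of 10 round spermatid and 9 of 10 Sertoli genes tested were higher. So were 8 of 9 macrophage and leukocyte, 4 of 10 spermatogonia and 2 of 10 peritubular and endothelial genes. Of 10 Leydig genes, 8 were lower. After adjustment 0 genes of any of these lists were called. Sycp1 of the synaptonemal complex was at 62.1 to 81.4 CPM in KO and 201 to 353 CPM in WT, and Sycp3 at 39.4 to 286 CPM in KO and 194 to 253 CPM in WT. Tbpl1 of the same list leaned the other way, at 415 to 641 CPM in KO and 283 to 433 CPM in WT. Ccna1 did so too, at 163 to 276 CPM in KO and 109 to 167 CPM in WT. The groups overlapped in both. Every gene of these 8 lists was detected, and their part in the results on the predicted genes was not tested. In bulk RNA, fewer cells of a type and less RNA per cell cannot be told apart.

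Together the 15 genes were at 7.15, 9.30 and 7.75 CPM in KO replicates 1, 2 and 3, against 81.7, 194 and 142 CPM in WT replicates 1, 2 and 3. Their estimated counts summed to 211.36 over the KO libraries and 3358.73 over the WT libraries. 4 of the 15 had an estimated count of 0 in every KO library, 3 were at 0 in 2 KO libraries, 3 were at 0 in 1, and 5 were detected in all 3. The KO libraries did not differ in this, with 7 of the 15 genes at 0 in each of them. Predicted genes as a class did not share the direction. All 24936 Gm rows together held 2.87% to 3.06% of the counts in KO and 2.42% to 2.60% in WT.

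**Figure D1:**
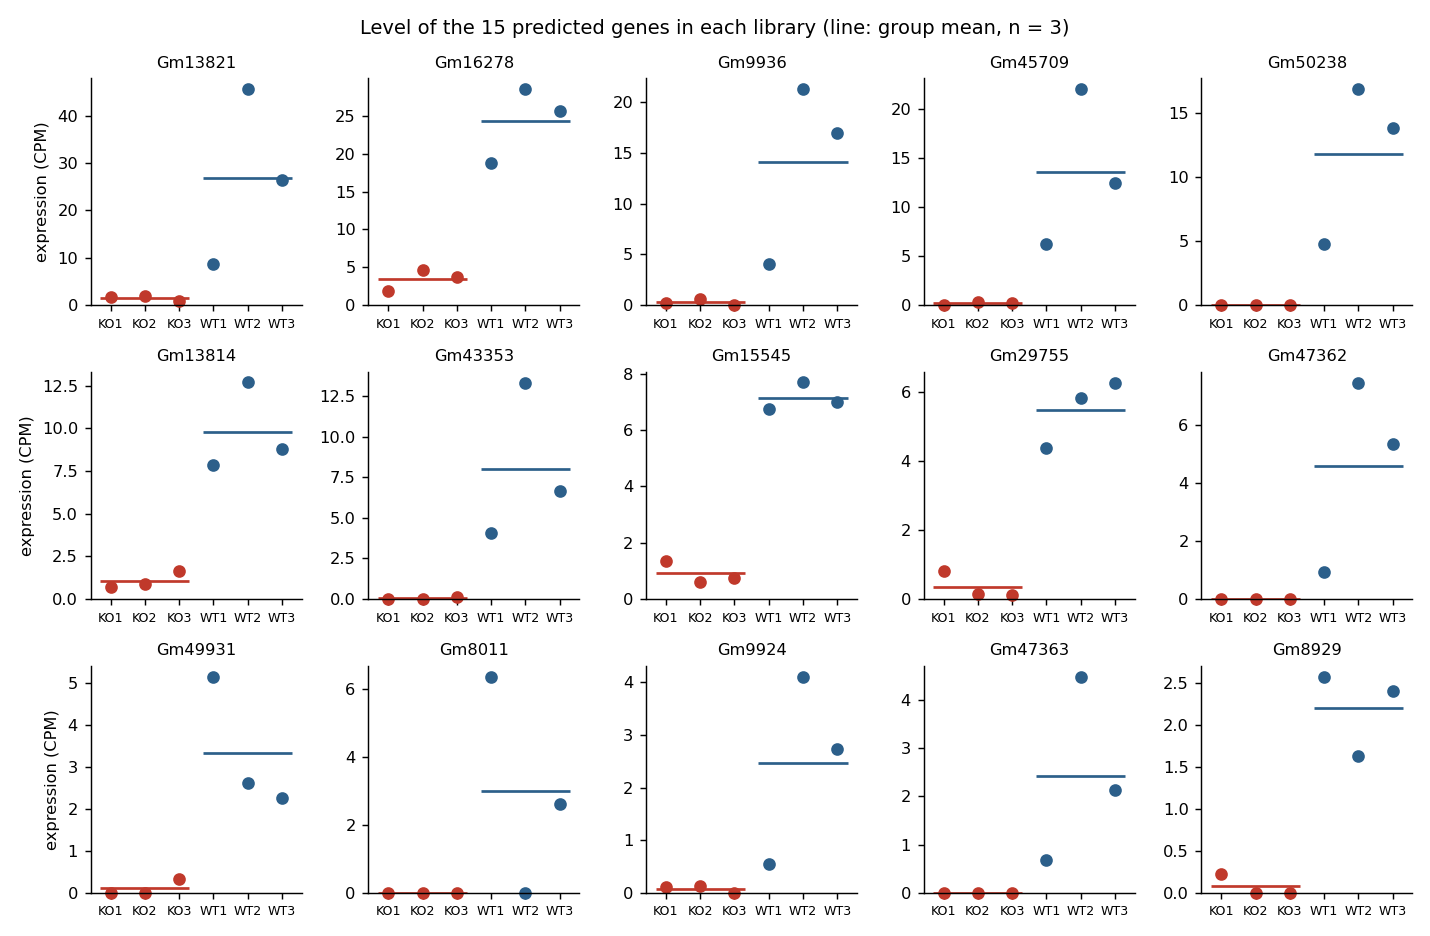
Expression of each of the 15 predicted genes in CPM, with a panel per gene, KO libraries in red on the left and WT libraries in blue on the right. Points are libraries and lines are group means (n = 3 each). The KO points lie below the WT points in every panel but that of Gm8011, where WT replicate 2 is also at 0. Gm16278 has the highest KO points, at 1.92 to 4.64 CPM, and WT replicate 2 is the highest point in 11 of the 15 panels.

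Gm43353 is a single-exon TEC gene on the plus strand at chr5:113324186-113325480. It was at 0, 0 and 0.11 CPM in KO libraries, against 4.05, 13.3 and 6.65 CPM in WT libraries. The only KO read came from replicate 3, and the summed counts were 1 in KO and 193 in WT, a 213-fold difference with a 95% counting interval of 37.8 to 8451.

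Gm50238 is a spliced noncoding transcript, listed as AC132460.1 in M21, on the minus strand at chr17:28076418-28080295. Its estimated count was 0 in every KO library, against 4.75, 16.8 and 13.9 CPM in WT libraries. With 287 counts summed over WT, a floor of 3 counts over the KO group puts it at least 105.5-fold lower in KO, and the 95% counting interval of the ratio starts at 85.3. Per unit of length it was the highest of the 15, listed at 0 TPM in each KO library, against a mean of 71.7 TPM in WT. Of its 496 exonic bases, 447 (90.1%) lie within exons of Tcp11, a testis gene on the same strand. Exons of the pseudogene 4930526A20Rik, also on that strand, share 49 (9.88%). Its counts were not whole numbers in the 3 WT libraries, which means that reads were divided between genes by estimation. Its KO value of 0 is an estimate too, so neither bound covers shared reads that were given to Tcp11 or 4930526A20Rik.

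Gm45709 is an antisense RNA on the minus strand at chr8:124897894-124900130. It was at 0, 0.37 and 0.22 CPM in KO libraries, against 6.22, 22.0 and 12.5 CPM in WT libraries. 5 counts in KO stood against 328 in WT, a 72.4-fold difference with a counting interval of 30.7 to 224. The groups of these 3 genes were apart by factors of 37.7 (Gm43353) and 16.97 (Gm45709) between the smallest WT and the largest KO value, with no such ratio for Gm50238.

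The most abundant gene of the 15 in CPM was Gm13821, a single-exon TEC gene on the minus strand at chr5:114838875-114842075. It was at 1.81, 1.95 and 0.86 CPM in KO libraries, against 8.65, 45.6 and 26.5 CPM in WT libraries. The WT libraries spanned a factor of 5.27 between replicates 1 and 2, wider than the gap of 4.43 between the smallest WT and the largest KO value. Its neighbour Gm9936, on the same strand at chr5:114855758-114858682, was at 0.23, 0.61 and 0 CPM in KO libraries, against 4.05, 21.3 and 16.98 CPM in WT libraries. M21 calls Gm9936 protein coding with 2925 exonic bases, while its effective length in the deposited table was 4106 bases, so the gene model used for counting was longer. Both genes were lowest in WT replicate 1 and highest in WT replicate 2.

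The antisense RNA Gm16278, on the plus strand at chr17:25919089-25935745, was the gene of this group with the most KO reads. It was at 1.92, 4.64 and 3.77 CPM in KO libraries, against 18.8, 28.6 and 25.6 CPM in WT libraries. Its summed count was 7.17-fold lower in KO (90 against 585 counts, counting interval 5.73 to 9.05), the smallest difference of the 15. The long intergenic RNA Gm13814, on the plus strand at chr2:92483926-92529809, was at 0.68, 0.85 and 1.61 CPM in KO libraries, against 7.84, 12.7 and 8.79 CPM in WT libraries. Its end overlaps that of Gm13817, which runs toward it on the opposite strand, by 116 bases. Gm13817 was not lower in every KO library: it was at 3.281, 2.08 and 18.2 CPM in KO libraries, against 6.08, 4.23 and 4.04 CPM in WT libraries.

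Gm15545, an antisense RNA on the plus strand at chr7:44986900-44994597, was the steadiest of the genes in WT. It was at 1.36, 0.61 and 0.75 CPM in KO libraries, against 6.76, 7.71 and 7.005 CPM in WT libraries. Gm9924, a TEC gene on the plus strand at chr5:31094984-31097294 inside Slc30a3, which encodes a zinc transporter, was at 0.11, 0.12 and 0 CPM in KO libraries, against 0.54, 4.10 and 2.73 CPM in WT libraries. The 0.54 CPM of WT replicate 1 is close to the limit that a count of 0 allows, and Gm9924 has 2 counts in KO, a 33.1-fold difference with a counting interval of 8.77 to 279. It shares no exonic base with Slc30a3, which was at 183, 167 and 183 CPM in KO libraries, against 184, 125 and 176 CPM in WT libraries.

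Among the processed pseudogenes, Gm29755 on the plus strand at chr5:11855234-11856181 was at 0.82, 0.14 and 0.11 CPM in KO libraries, against 4.38, 5.82 and 6.26 CPM in WT libraries. Gm8929 on the plus strand at chr5:11780120-11781251 was at 0.23, 0 and 0 CPM in KO libraries, against 2.57, 1.63 and 2.40 CPM in WT libraries. Gm49931, listed as CT025671.5 in M21, on the plus strand at chr17:66188258-66189698, was at 0, 0 and 0.32 CPM in KO libraries, against 5.13, 2.61 and 2.26 CPM in WT libraries. In Gm49931 and Gm8929 WT replicate 1 was the highest WT library rather than the lowest. The pair on the minus strand of chromosome 10 had an estimated count of 0 in every KO library. Gm47362, at chr10:85744174-85745068, was at 0.95, 7.46 and 5.34 CPM in WT libraries and at least 41.2-fold lower in KO over the group, with a counting interval that starts at 32.9. Gm47363, at chr10:85745403-85745951, was at 0.68, 4.47 and 2.14 CPM in WT libraries and at least 21.7-fold lower in KO, with a counting interval that starts at 17.1.

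Gm8011, called protein coding, on the plus strand at chr14:42463881-42472122, entered by the letter of the rule only. It was at 0 CPM in all KO libraries, against 6.36, 0 and 2.61 CPM in WT libraries. A WT replicate at 0 is at least 4 times a KO value of 0, so its groups touch. When the smallest WT value had to be above 0, a condition chosen after seeing the data, the rule gave 14 genes, without Gm8011 and with no other change.

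The limit of 4 cut through a continuous spread. Just inside were Gm16278 at a ratio of 4.05 and Gm9924 and Gm13821 at 4.43, and just outside were Gm12116 at 3.98, Gm34060 at 3.92 and Gm16167 at 3.87. At the other limit, Gm8929 had a WT mean of 2.20 CPM, and Gm50311 met the ratio with a WT mean of 1.76 CPM. The 15 genes were 1.20% of the 1245 Gm rows at the WT minimum. The same conditions were met by 0.0375% of the 13330 genes with other symbols, 5 in number: Ceacam20, Perm1, Zfp264, Spata22 and EPPK1. With the genotypes exchanged, at least 2 CPM on average in KO and every KO value at least 4 times every WT value, the conditions were met by 10 of 1509 Gm rows (0.663%) and by 19 of 14137 other genes (0.134%). Gm symbols thus made up a larger share of the selected genes than of all genes at the minimum in both directions.

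**Figure D2:**
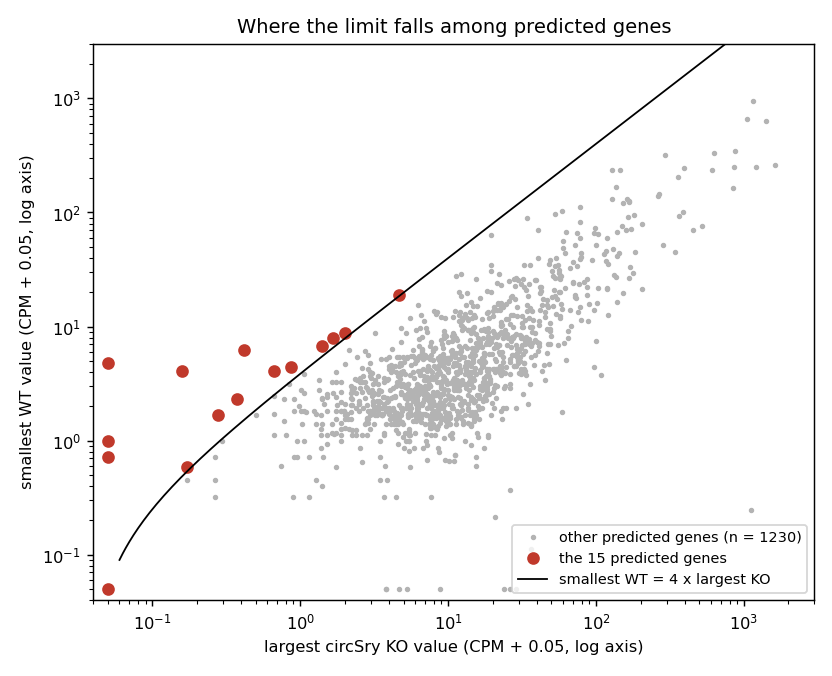
Smallest WT value against largest KO value for the 1245 Gm rows with a WT mean of at least 2 CPM, both in CPM plus 0.05 on log axes, with the 15 selected genes in red, the 1230 others in grey and the limit of 4 as a line. Genes at 0 in every KO library stand at the left edge, Gm8011 is the red point in the lower left corner, and grey points continue right up to the line.

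In edgeR's quasi-likelihood test over all genes, 11 of the 15 passed the filter on low counts, and the 4 that did not were Gm47362, Gm47363, Gm8011 and Gm9924. None of the 11 was called at a Benjamini-Hochberg adjusted p under 0.05, in a fit that called 0% of the 16829 genes tested as lower in KO. The smallest adjusted p of the fit was 0.087. At an unadjusted p under 0.05 the same fit found 11 of the 11, against 9.84% of all genes lower in KO, and 13.6% of all genes were higher in KO. DESeq2 called 14 of the 15 as lower, all but Gm8011, and of 31177 genes tested it called 2.22% lower and 3.05% higher. edgeR called all 15 when KO replicate 3 was left out, in a fit that called 16.2% of 17948 genes as lower and 18.5% as higher in KO. Since the rule used this contrast, these counts say nothing beyond it. The fitted log2 fold changes, KO over WT, ran from -2.73 ± 0.44 (SE) for Gm16278 to -9.57 ± 1.08 for Gm50238, the last resting on a prior count because KO was at 0. Their median over the 11 was -4.55, against 0.12 for all genes tested. With the 4 genes at 0 in KO set to their floor, the median log2 ratio of summed counts over the 15 was -4.84.

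The WT libraries were not alike in these genes, and the rule had only asked for their minimum. 12 of the 15 were lowest in WT replicate 1, 11 were highest in WT replicate 2, and those 11 were both. Of 1222 other Gm rows detected in all WT libraries, 41.7% were lowest in WT replicate 1 and 38.3% highest in WT replicate 2. Over the 14 genes detected in all WT libraries, the median ratio of WT replicate 2 to WT replicate 1 was 3.41, while over 1222 other Gm rows it was 1.02. For WT replicate 3 to WT replicate 1 the medians were 1.82 and 1.01. Gm47362 had the widest ratio, 7.88, followed by Gm9924 at 7.59, and Gm49931 the lowest at 0.51. Genes are not replicates of a condition, so no test goes with these medians. The choice of WT replicate 1 mattered to membership, since 40 Gm rows met the rule without it and 14 of the 15 were among them.

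**Figure D3:**
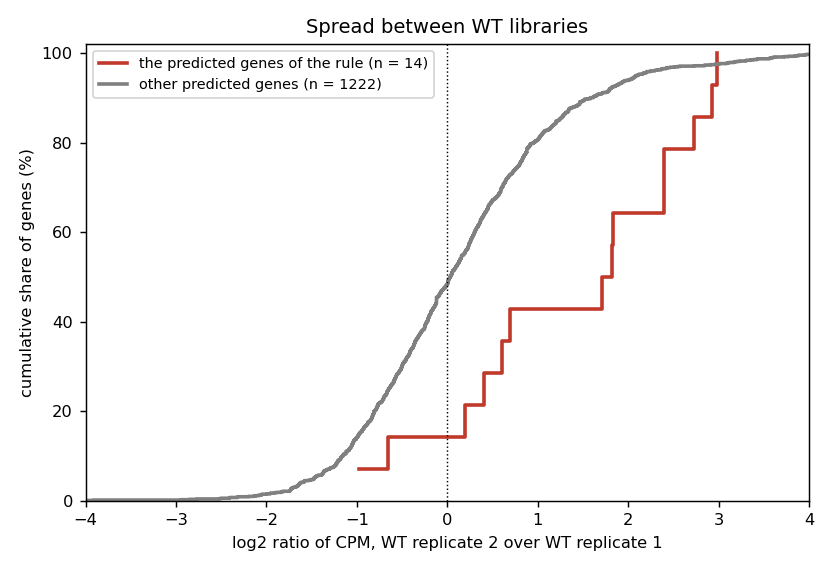
Cumulative share of genes against the log2 ratio of CPM between WT replicate 2 and WT replicate 1, for the 14 selected genes detected in all WT libraries (red) and 1222 other Gm rows (grey). The grey curve crosses its middle close to 0 and the red curve lies to its right, with a median ratio of 3.41 against 1.02.

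Membership also depended on which KO libraries were asked for. Leaving out KO replicate 3, all 15 genes still met the rule, among 50 Gm rows that then did. Leaving out KO replicate 2 gave 49 rows and leaving out KO replicate 1 gave 22, each with all 15 among them. For 35 of those 50 rows, then, a higher value in KO replicate 3 was what had kept them out.

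In other properties the 15 genes were set beside the 1230 Gm rows at the same WT minimum that did not meet the ratio, or the 1220 of them placed in M21. 40.0% of the 15 lay on chromosome 5, against 9.51% of the others, and 33.3% were processed pseudogenes, against 9.59%. TEC genes made up 20%, against 11.1%. An overlap with another annotated gene was present in 53.3%, against 59.3%. The median effective length was 887 bases, against 1230 bases, and their median WT mean was 7.16 CPM, against 5.41 CPM. 26.7% had a count that was not a whole number in some library, against 29.6%, so divided reads were about as frequent among them. The pairs of neighbours and the family described next are not independent entries in these shares.

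Gm29755 and Gm8929 are copies of Anapc5, which encodes a subunit of the anaphase-promoting complex, the ubiquitin ligase that starts chromosome separation. Their transcripts matched Anapc5 at 93.4% and 92.8% of aligned bases and each other at 96.0%. A stretch of 60 bases shows how little separates them. It comes from bases 21 to 80 of the Gm29755 transcript, bases 204 to 263 of Gm8929 and bases 1503 to 1562 of Anapc5, in M21, and capitals mark bases that differ from Anapc5.
Gm29755: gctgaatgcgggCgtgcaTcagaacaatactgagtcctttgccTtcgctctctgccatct
Gm8929: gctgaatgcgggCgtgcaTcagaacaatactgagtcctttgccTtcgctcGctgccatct
Anapc5: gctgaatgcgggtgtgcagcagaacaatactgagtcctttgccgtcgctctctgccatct

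Each of the pair had 12 genes at 90% identity or more over at least 80% of its length, so the division of reads among them is uncertain. Taken as a family, the 12 Anapc5 copies summed to 4.75, 4.11 and 4.09 CPM in KO libraries, against 13.4, 16.7 and 20.7 CPM in WT libraries. Without Gm29755 and Gm8929, which the rule had chosen, the other 10 copies summed to 3.71, 3.97 and 3.98 CPM in KO libraries, against 6.41, 9.23 and 12.0 CPM in WT libraries. The groups did not overlap in either sum. All KO values lay below all WT values in 5 of the 10 copies the rule had not chosen, against 16.9% of the 16829 genes tested. Among Gm processed pseudogenes the share was 7.58% of 1833 detected in WT, and 27.5% of 236 at a WT mean of at least 1 CPM. The chosen pair met this by the rule. Since reads may have been divided between the pair and the other 10 copies, those are not independent of the rule. Anapc5 itself was at 85.4, 87.7 and 113 CPM in KO libraries, against 137, 152 and 113 CPM in WT libraries, where KO replicate 3 reached the lowest WT value.

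Gm8011 also belongs to a family, with 14 copies at the same limits, of which Gm5798 matched it at 99.8% of bases. The 14 copies without Gm8011 summed to 58.5, 47.6 and 187 CPM in KO libraries, against 113, 113 and 101 CPM in WT libraries. Those groups overlap, with KO replicate 3 the highest of the 6 libraries. Sequence nearly identical to Gm8011 was thus counted in every KO library.

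Gm47362 and Gm47363 lie in a cluster of pseudogenes, which was looked at after its values were seen. Within 1 Mb of Gm47362 there were 33 Gm rows annotated as processed pseudogenes, 29 of them detected in WT. 15 of these 29, the pair included, had no count in any KO library, against 35.0% of the 1833 Gm processed pseudogenes detected in WT anywhere, most of which had few reads. The 15 together were at 5.43, 34.4 and 17.9 CPM in WT libraries. At a WT mean of at least 1 CPM, 9 of 19 in the interval had no KO count, the pair that the rule chose among them, against 4.66% of 236 Gm processed pseudogenes in all. Over all kinds of Gm row, 14 of 34 others detected in WT within 1 Mb of Gm47362 were at 0 in every KO library. The share was 21.3% of the 8115 Gm rows detected in WT anywhere. Shares close to that around Gm47362 were found around Gm16278 (6 of 13), Gm49931 (6 of 13) and Gm50238 (10 of 24). Around the rest, apart from Gm47363, the share was lower than around Gm47362, from 2 of 29 at Gm29755 and Gm8929 to 2 of 6 at Gm13814. 5 pseudogenes of the chromosome 10 interval did reach 1 CPM in a KO library. Gm6721 was at 2.26, 35.5 and 0 CPM in KO libraries, against 3.11, 13.1 and 7.12 CPM in WT libraries. Gm6713 was at 0.79, 22.9 and 0 CPM in KO libraries, against 1.76, 9.07 and 6.41 CPM in WT libraries. Gm6729 and Gm5174 were likewise highest in KO replicate 2, at 17.5 and 15.4 CPM, and at 0 in KO replicate 3. Absence from KO was thus a property of some pseudogenes of the interval and not of others. 4 genes were at 90% identity or more with Gm47363 over at least 80% of its length, all within the same interval.

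**Figure D4:**
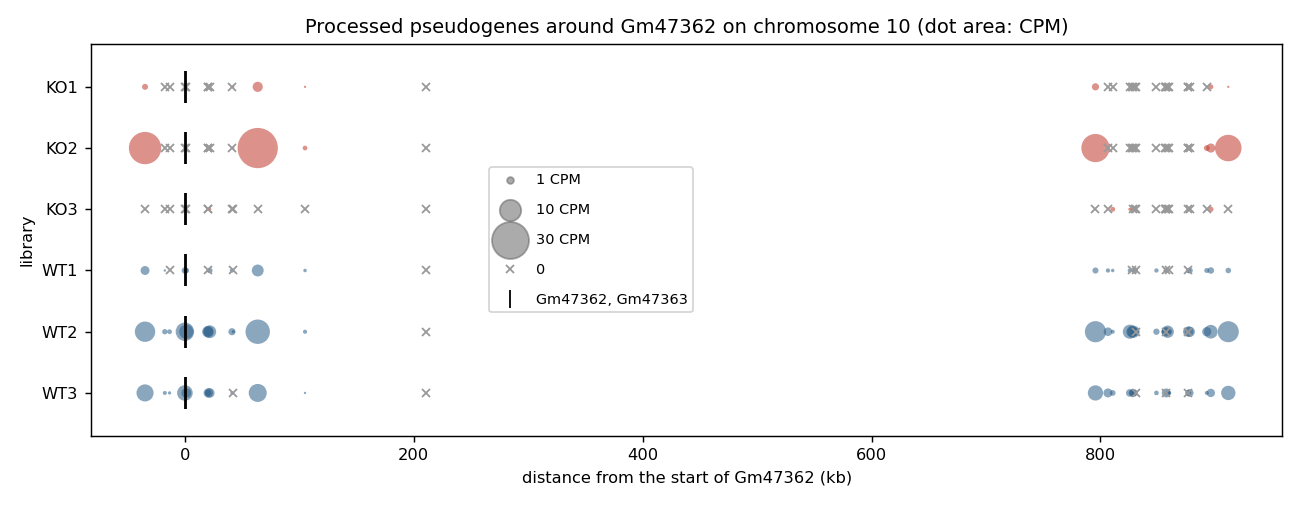
The 33 processed pseudogenes within 1 Mb of Gm47362 on chromosome 10, by distance in kb from the start of Gm47362, with a row per library (KO in red above, WT in blue below). Dot area is proportional to CPM, crosses are values of 0 and black bars mark Gm47362 and Gm47363. Crosses fill most positions in the KO rows, apart from 4 large dots in KO replicate 2, and WT replicate 2 has more and larger dots than WT replicate 1.

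Of the 15, 7 share exonic bases with another annotated gene, and the counts were read for signs of division between them. Gm16278, Gm9936, Gm45709, Gm13814, Gm43353 and Gm15545 share bases with genes on the other strand only, and neither they nor those genes had a divided count in any library (whole numbers within 0.005). Gm50238, Tcp11 and 4930526A20Rik lie on the same strand, and each had divided counts in 3 libraries. Whether counting used strand is not given, and the kit named in the labels is not a stranded version. In libraries that do not mark strand, a whole count does not show which of a pair on opposite strands a read came from. The genes that overlap the 15 or lie within 10 kb of them were set beside them. There were 26 such genes in the table, of which 21 were tested. None passed an adjusted p of 0.05 in edgeR. At an unadjusted p under 0.05, 4 were lower in KO (Pigq, Sprtn, Scaf1 and Gm20742) and 0 were higher, against 9.84% and 13.6% of all genes tested. DESeq2 called 2 of 23 tested as lower, Pigq and Scaf1, and none as higher, against 2.22% and 3.05% of all genes. edgeR without KO replicate 3 called 11 of 21 as lower and 0 as higher, against 16.2% and 18.5% of all genes in that fit, and Sprtn, Bcl2l12, Irf3 and 4930405N21Rik were among the 11. The median log2 fold change of the 21 was -0.56, against 0.12 for all genes tested. In 4 of the 21 all KO values lay below all WT values (Pigq, Sprtn, Exoc8 and Scaf1), against 16.9% of the 16829 genes tested, so the share was close to that of the table.

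Pigq, which encodes a subunit of the enzyme that starts GPI anchor synthesis, lies opposite Gm16278 and shares 957 exonic bases with it, 46.2% of the exons of Gm16278. It was at 8.37, 11.4 and 9.36 CPM in KO libraries, against 25.3, 42.1 and 40.0 CPM in WT libraries. Its log2 fold change was -1.80 ± 0.35 (SE, edgeR adjusted p = 0.087). Rab40c, at the other end of Gm16278, was at 11.9, 9.77 and 33.5 CPM in KO libraries, against 28.2, 36.8 and 26.5 CPM in WT libraries, and its groups overlapped.

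Sprtn, which encodes a protease that removes proteins crosslinked to DNA, runs opposite Gm45709 and shares 488 bases, 45.4% of the exons of Gm45709. It was at 178, 142 and 427 CPM in KO libraries, against 563, 941 and 842 CPM in WT libraries (log2 fold change -1.49 ± 0.52, SE, edgeR adjusted p = 0.146). All KO values lay below all WT values, with KO replicate 3 the nearest to WT, whereas Gm45709 in KO replicate 3 was at 0.22 CPM. Exoc8, which encodes an exocyst subunit, lies 189 bases from Gm45709 and was at 29.98, 21.7 and 53.7 CPM in KO libraries, against 70.3, 58.4 and 65.4 CPM in WT libraries.

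Tcp11 did not share the difference of the predicted gene it holds. It was at 2023, 2041 and 1045 CPM in KO libraries, against 1936, 1064 and 1390 CPM in WT libraries, and the groups overlapped (log2 fold change 0.25 ± 0.36, SE, edgeR adjusted p = 0.708). Gm50238, which shares most of its bases with Tcp11 at full identity, was listed at 0 in the same KO libraries. 4930526A20Rik, a pseudogene that overlaps one end of Gm50238, was at 5.66, 23.2 and 4.21 CPM in KO libraries, against 25.0, 35.3 and 22.0 CPM in WT libraries.

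Gm15545 shares 572 bases, 28.9% of its exons, with Bcl2l12, a member of the BCL2 family. Bcl2l12 was at 22.7, 9.28 and 102 CPM in KO libraries, against 76.8, 98.7 and 93.7 CPM in WT libraries. In KO replicate 3 it was slightly above all WT values while Gm15545 stayed at 0.75 CPM. Irf3, an interferon regulatory factor gene 3051 bases away, had a similar shape but lay within the WT range in KO replicate 3. It was at 15.3, 12.5 and 97.7 CPM in KO libraries, against 113, 109 and 79.8 CPM in WT libraries. Scaf1, which encodes an SR-related protein, was below WT in all KO libraries, at 23.9, 38.2 and 31.2 CPM, against 122, 133 and 103 CPM in WT libraries (log2 fold change -1.86 ± 0.32, SE, edgeR adjusted p = 0.087).

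The noncoding gene 4930405N21Rik lies 2533 bases from Gm43353 on the other strand. It was at 2.15, 0.85 and 96.0 CPM in KO libraries, against 69.9, 90.1 and 76.0 CPM in WT libraries. KO replicates 1 and 2 were far below WT and KO replicate 3 above it, so the neighbours behaved alike in KO replicates 1 and 2 and unlike in KO replicate 3. Gm20742, near Gm49931, was at 2.26, 7.81 and 2.26 CPM in KO libraries, against 6.22, 21.5 and 9.50 CPM in WT libraries, and its groups overlapped (log2 fold change -1.54 ± 0.63, SE, edgeR adjusted p = 0.189). 4930519G04Rik, which overlaps Gm9936 by 51 exonic bases, was at 35.4, 29.9 and 35.6 CPM in KO libraries, against 43.5, 33.1 and 33.2 CPM in WT libraries.

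**Figure D5:**
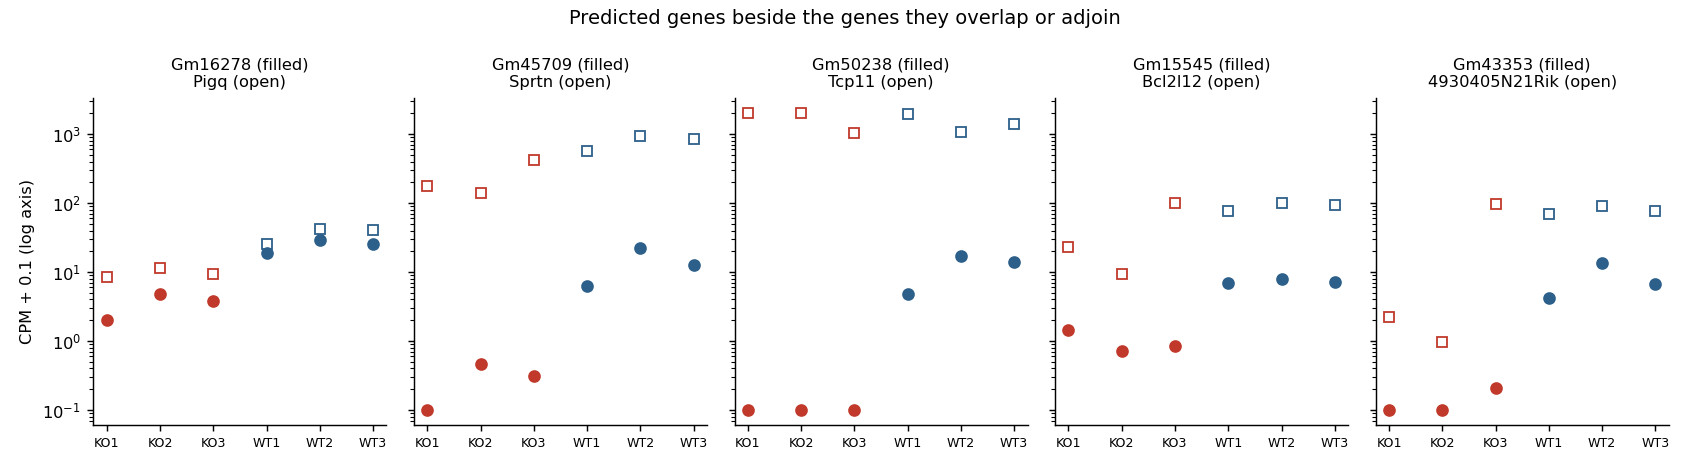
CPM plus 0.1 on a log axis for 5 of the predicted genes (filled circles) and an overlapping or adjoining gene (open squares), by library, KO in red on the left and WT in blue on the right. Pigq is lower in all 3 KO libraries, as Gm16278 is, and Tcp11 overlaps between the groups. Bcl2l12 and 4930405N21Rik lie slightly above their WT values in KO replicate 3, while Gm15545 and Gm43353 stay below theirs.

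Unstable noncoding transcripts are removed by known machineries, and 5 lists of their genes were read from the same fit. The nuclear exosome with its adaptors degrades unspliced, antisense and promoter-upstream RNA. Nonsense-mediated decay removes transcripts with early stop codons, decapping and the Xrn exonucleases act from the other end, and cleavage and termination factors set where transcription ends. A list of named long noncoding RNAs was added for comparison with the predicted genes. edgeR called 0 members of any list at an adjusted p under 0.05. DESeq2 called 1 as lower, Smg8 of nonsense-mediated decay, and edgeR without KO replicate 3 called 23 as lower and 1 as higher of the 78 tested, against 16.2% and 18.5% of all genes in that fit.

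The counts at an unadjusted p under 0.05 in edgeR are to be read against the 9.84% of all genes lower and 13.6% higher at that limit. The exosome list had 1 of 20 lower and 1 higher, with a median log2 fold change of 0.16 against 0.12 for all genes. Its most abundant members were Exosc5, a subunit of the exosome ring, at 451 ± 237 CPM in KO and 336 ± 125 CPM in WT, and Mtrex, its helicase, at 187 ± 37.3 CPM in KO and 179 ± 10.3 CPM in WT (SD, n = 3 each). Both differences were smaller than the KO spread. The nonsense-mediated decay list had 4 of 18 lower and 0 higher, with a median of -0.32. Its most abundant members were Ncbp1, of the cap-binding complex, at 422 ± 23.8 CPM in KO and 406 ± 37.4 CPM in WT, and Upf3a at 351 ± 193 CPM in KO and 366 ± 123 CPM in WT (SD, n = 3 each).

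The decapping and exonuclease list had 2 of 10 lower and 0 higher, with a median of -0.32. Its most abundant members were Edc4, a scaffold of decapping, at 127 ± 77.0 CPM in KO and 285 ± 44.1 CPM in WT, and Dcp1b at 126 ± 24.3 CPM in KO and 114 ± 2.53 CPM in WT (SD, n = 3 each). The cleavage and termination list had 2 of 17 lower and 0 higher, with a median of -0.24, and was led by the scaffold Sympk at 241 ± 15.9 CPM in KO and 300 ± 78.7 CPM in WT, and Pcf11 at 166 ± 78.4 CPM in KO and 167 ± 35.3 CPM in WT (SD, n = 3 each). The named long noncoding RNAs had 1 of 13 lower and 0 higher, with a median of -0.09. Malat1 was at 94.6 ± 75.6 CPM in KO and 128 ± 47.1 CPM in WT, and Norad at 70.8 ± 23.6 CPM in KO and 139 ± 13.1 CPM in WT (SD, n = 3 each). None of the 10 most abundant members passed the test. All KO values lay below all WT values in 7 of 18 nonsense-mediated decay genes and 4 of 10 decapping and exonuclease genes. The same held for 5 of 17 cleavage and termination, 2 of 21 exosome and 3 of 14 named long noncoding genes. The share was 16.9% of all genes tested. In each list 0 genes had all KO values above all WT values. A part of these genes in the levels of the predicted genes was not tested.

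Mybl1 was at 59.5, 54.9 and 41.3 CPM in KO libraries, against 76.3, 134 and 104 CPM in WT libraries. The groups did not overlap, as in 16.9% of all genes tested with KO below WT. The log2 fold change was -0.94 ± 0.31 (SE, edgeR adjusted p = 0.130). Leaving out KO replicate 3 gave an edgeR adjusted p of 0.0335, in the fit that called 16.2% of all genes as lower. It was named for its role in noncoding transcription of pachytene cells, after its values could be seen. Like 11 of the 15 predicted genes, it was lowest in WT replicate 1 and highest in WT replicate 2 among the WT libraries. Among other Gm rows, 41.7% were lowest in WT replicate 1 and 38.3% highest in WT replicate 2. A link between Mybl1 and the predicted genes was not tested.

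Over the 6 libraries, the 3 genes of other symbols whose log2(CPM + 1) followed the mean of the 15 most closely were Kpnb1 (Pearson r = 0.999), Zxdc (r = 0.998) and Nelfa (r = 0.998), out of 13330 compared. Kpnb1, which encodes importin beta, was at 245, 242 and 244 CPM in KO libraries, against 401, 521 and 500 CPM in WT libraries. Zxdc, a zinc finger gene, was at 7.13, 6.96 and 7.21 CPM in KO libraries, against 15.4, 20.6 and 17.9 CPM in WT libraries. Nelfa, a subunit of the negative elongation factor that pauses RNA polymerase II, was at 24.2, 24.5 and 26.7 CPM in KO libraries, against 58.4, 79.8 and 74.2 CPM in WT libraries. All 3 had nearly equal values in the KO libraries and were lowest in WT replicate 1 and highest in WT replicate 2. With 6 points in 2 groups and so many genes compared, such coefficients describe the shape of the pattern only.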

How the data were processed

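RNA-seq tables of 3 circSry KO and 3 WT libraries of sorted primary spermatocytes were used, grouped by the genotype in the labels. Per the file headers, the authors deposited an expected count for each gene in each library, with no normalization, and beside it the TPM and the FPKM that they scaled to length and library. RSEM 1.3.2, STAR 2.7.0f and edgeR 3.28.1 appear in the submitters' processing notes, as do builds mm9 and GRCm39, without roles. No source used here gives the annotation release. Positions came from GENCODE M21 (GRCm38), matched by identifier for 52147 of 53700 genes, and may differ from the models counted. TPM served as an alternative scale, and FPKM with counts gave effective lengths.

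Estimated counts were divided by column sums for CPM. They were rounded and tested with edgeR 4.0.16 (R 4.3.3): filterByExpr, TMM, quasi-likelihood test on genotype, Benjamini-Hochberg adjustment over all genes tested, threshold 0.05. A standard error is the log2 fold change over the square root of F. Nothing says that libraries came from separate animals, so a p-value measures spread between samples that may be technical. Alternatives used DESeq2 1.42.0 and limma 3.58.1. The edgeR steps were tested on simulated data. Counting intervals on summed counts are exact (95%) and, like the floor of 3 counts, cover counting error only. Similarity came from blastn 2.17.0. The kit in the labels' protocols is TruSeq RNA Sample Prep, not a stranded version, and the use of strand in counting is not stated.

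The members and gene lists were chosen with earlier results of these data known. All members are named. From each list come those past the threshold or, if none, the 2 with the highest mean. Neighbours are those overlapping or within 10 kb, and likeness takes the 3 highest correlations. The chromosome 10 interval, Mybl1, the Anapc5 family and the condition on Gm8011 were chosen after values were seen.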

Additional observations from a re-analysis of the deposited data

How the results depend on the processing

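The count of 15 predicted genes depended on the limits: 82 on the deposited TPM scale (13 of the 15 among them, without Gm16278 and Gm9924), 45 at a 2-fold and 6 at an 8-fold limit, 36 at a WT minimum of 1 CPM and 9 at 5 CPM. With each library left out in turn it ran from 13 to 50: 22, 49 and 50 without KO replicates 1, 2 and 3, and 40, 13 and 18 without WT replicates 1, 2 and 3. TMM-scaled libraries gave 18. Over all genes, edgeR's 0 lower and 0 higher became 321 lower and 548 higher with no filter, 692 and 951 with DESeq2, and 3 and 4 with limma on log2(TPM + 1). Leaving out each library gave 0 to 2909 lower and 0 to 3319 higher, and only leaving out KO replicate 3 gave calls, among them all 15 predicted genes. The median log2 fold change of the predicted genes tested was -4.99 with DESeq2 and -2.90 with limma on TPM, where the median of all genes moved by -0.37, and ran from -5.37 to -4.54 with a library left out. Over the 5 gene lists, DESeq2 called 1 lower, and leaving out each library gave 0 to 23 lower and 0 to 1 higher. No predicted gene changed sign. The median of all genes, 0.12, was -0.25 with limma on TPM and -0.0035 with the replicate block, the exosome list median, 0.16, was -0.000422 without KO replicate 3, and of the list genes given with values Exosc5, Mtrex, Ncbp1, Upf3a, Dcp1b, Sympk and Pcf11 changed sign under some alternative. Samples with the same replicate number correlated at 0.08, 0.33 and -0.31 in their deviations from the group means, and those with other numbers at -0.47 to 0.35. With 3 libraries per group these values cannot tell whether the numbers pair the samples, and the labels do not say. With the replicate block edgeR again called 0 genes, the predicted genes' median was -4.68 and the median of all genes moved by -0.12. The causes of these differences were not tested. Depth limits the 10 predicted genes under a WT mean of 10 CPM most, since 3 counts are about 0.323 to 0.405 CPM.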
